A study of Mus musculus with 11 samples.

Results

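The 10 genes described here are Igkc, Ighm, Cd79a and Cd79b of the B lineage, Cd3e and Trac of T cells, and Nkg7, Gzma, Ccl5 and Ms4a4b of natural killer (NK) cells and other cytotoxic or activated lymphocytes. They were chosen by symbol from the 31053 genes listed for every section of mouse liver, and all 10 were detected in all 11 sections. Together they held 16558 unique molecular identifiers (UMIs, each standing for 1 captured transcript), or 30.8 CPM, a count scaled to the same total in every section, of the spots kept.

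The sections came from uninjured liver (0 h, sections 2, 3 and 4, labelled Healthy) and from liver 24 h (A and B), 36 h (A and B) and 48 h (A to D) after acetaminophen (APAP), a drug that kills the hepatocytes around the central veins. Sections of the 3 later groups carry the word POD in the labels, which is not spelled out there, and the methods of the study describe APAP given by intraperitoneal injection to fasted mice, male unless stated otherwise, and name the wild-type strain C57BL/6JCrl. RNA was captured on Visium slides, where each spot lies under a small patch of tissue and can hold several cells of different types. The methods give a single mouse per time point for this assay, so the tests below measure the spread between sections, and mouse, slide and time cannot be told apart. The kept spots held 31292663 to 67045372 UMIs per section, of which 600 to 3213 were of the 10 genes, and the hepatocyte gene Alb at 42701 to 68813 CPM was abundant in every section.

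B cells carry an antibody at their surface, made of heavy and light chains and coupled to the CD79A and CD79B signalling chains, and plasma cells that arise from them secrete antibody in large amounts. T cells recognise antigen through a receptor held in the CD3 complex, and NK and cytotoxic T cells kill targets with granule proteases. The liver holds resident lymphocytes of all these kinds in its sinusoids and portal tracts. Because each spot mixes cells, fewer cells of a type and less RNA per cell cannot be told apart in any value below.

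Igkc, Ighm and Ccl5 gave the most UMIs, with 4954, 3099 and 4700 over the 11 sections. Cd79b had 1025, Gzma 614, Cd79a 580, Nkg7 557, Ms4a4b 456, Trac 432 and Cd3e 141. The reads were counted at transcript 3′ ends and the values are not per length, so the genes are not ranked against each other. Cd3e, an invariant chain of the T cell receptor complex, reached only 7 to 30 UMIs per section.

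Over time, the light chain gene Igkc was higher and Ighm, the heavy chain gene of IgM, lower at 48 h, while Cd79a and Cd79b were not called. Trac, Nkg7 and Ms4a4b were lower at 24 h, and Nkg7 was lower than in uninjured liver at every later time. In the comparison of 24 h with 0 h, 0 of the 10 genes were called higher and 3 lower at an adjusted p under 0.05 (edgeR), against 23.1% and 18.6% of all 14821 genes tested. At 36 h, 0 were higher and 2 lower, against 16.8% and 12.4%. At 48 h, 1 was higher and 2 lower, against 23.3% and 20.9%. Total-count scaling turned this split to 3 higher (Igkc, Cd79b and Ccl5) and 0 lower. None of the 10 was called between 36 h and 24 h, where 15.6% of all genes were, or between 48 h and 36 h, where 3.05% were. In each of these 2 steps 1 member had an unadjusted p under 0.05 (Igkc and Trac, in that order), and DESeq2 called 1 (Igkc) and 0.

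**Figure D1:**
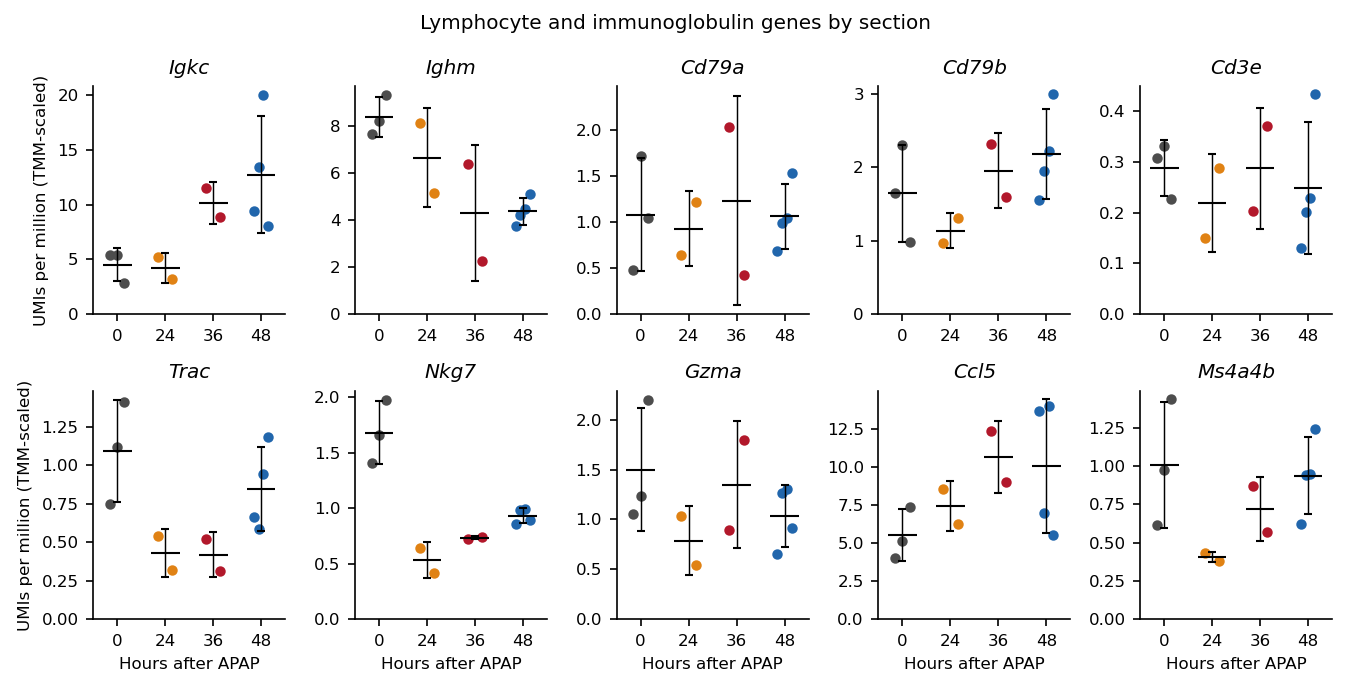
Level of each of the 10 genes in each section, in CPM scaled by TMM (vertical axes, 1 panel a gene), with 1 point for each section at 0, 24, 36 and 48 h. The 4 Igkc points at 48 h lie between 8.08 and 19.9 CPM, above the 0 h points, and the Nkg7 points of all injured sections lie below those at 0 h.

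Igkc (chr6:70726435-70726966, plus strand, GRCm38) is the constant region of the kappa light chain, which most mouse antibodies carry. It stood at 5.39, 5.36 and 2.82 CPM in the 0 h sections, 5.18 and 3.25 at 24 h, 11.5 and 8.82 at 36 h, and 9.44, 13.4, 19.9 and 8.08 at 48 h. All 36 h and 48 h sections were above all 0 h sections, while the 24 h sections overlapped them. The level at 48 h was higher by 1.48 ± 0.35 (log2 fold change ± SE, n = 4 and 3, adjusted p = 0.00644, edgeR). At 36 h the difference of 1.16 ± 0.40 missed the threshold (n = 2 and 3, adjusted p = 0.0520, edgeR), and scaling to total counts brought it past (1.60, adjusted p = 0.0095). DESeq2 also called it (1.15, adjusted p = 0.0182). So did edgeR with only 0 h and 36 h in the fit (adjusted p = 0.0392), without 48 h section C (0.0256) or without 48 h section D (0.0398). The other settings did not.

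Ighm (chr12:113418558-113422730, minus strand) is the constant region of the IgM heavy chain, the class borne by naive B cells. Its level was 7.66, 8.21 and 9.32 CPM at 0 h, 8.15 and 5.17 at 24 h, 6.37 and 2.28 at 36 h, and 3.75, 4.21, 4.48 and 5.11 at 48 h. Sections of 36 h and 48 h all lay below the 0 h sections, the opposite order to Igkc. At 48 h it was lower, at -0.93 ± 0.28 (n = 4 and 3, adjusted p = 0.0203, edgeR), and at 36 h the difference was -0.96 ± 0.35 (n = 2 and 3, adjusted p = 0.0641, edgeR). Without 36 h section A, the higher of its pair, the latter was -1.88 (adjusted p = 0.0016, edgeR), and with all sections DESeq2 called it at -0.97 (adjusted p = 0.0256). The 48 h call was lost under total-count scaling (-0.41, adjusted p = 0.238), without 0 h section 3 (adjusted p = 0.0538) and without 0 h section 4 (adjusted p = 0.0676). In spots off the tissue the 0 h and 48 h values of Ighm overlapped, as given below.

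Cd79a (chr7:24897381-24902197, plus strand) and Cd79b (chr11:106311341-106314762, minus strand) encode the signalling chains of the B cell receptor. Cd79a ranged from 0.484 to 1.71 CPM at 0 h and from 0.680 to 1.53 at 48 h, and Cd79b from 0.989 to 2.30 and from 1.56 to 3.01. Neither was called in any comparison under TMM, and in both the 0 h and 48 h sections overlapped. Total-count scaling called Cd79b higher at 48 h (0.92, adjusted p = 0.0252, edgeR). The highest 0 h section of Cd79a, section 3, also held the most haemoglobin RNA at 0 h, 820 CPM of Hbb-bs against 56.6 and 42.8 in the other sections, and whether this bears on the value was not tested.

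Trac (chr14:54220521-54224206, plus strand) is the constant region of the T cell receptor alpha chain. It read 0.748, 1.12 and 1.41 CPM at 0 h, 0.538 and 0.319 at 24 h, 0.521 and 0.314 at 36 h, and 0.666, 0.584, 0.947 and 1.18 at 48 h. Sections of 24 h and 36 h lay below all 0 h sections, and the 48 h sections overlapped them. The log2 fold change was -1.31 ± 0.44 at 24 h (n = 2 and 3, adjusted p = 0.0333, edgeR) and -1.38 ± 0.45 at 36 h (n = 2 and 3, adjusted p = 0.0403, edgeR). The 36 h call was lost under total-count scaling (-0.94, adjusted p = 0.103), without 0 h section 3 (adjusted p = 0.0872), 0 h section 4 (0.106), 36 h section B (0.214) or 48 h section C (0.0512), and with only 0 h and 36 h in the fit (0.0607). Cd3e (chr9:44998740-45009627, minus strand) was not called and its groups overlapped, at 0.130 to 0.433 CPM in all sections.

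Nkg7 (chr7:43437073-43438249, plus strand) encodes a membrane protein of cytotoxic granules. Its level was 1.41, 1.66 and 1.98 CPM at 0 h, 0.645 and 0.415 at 24 h, 0.724 and 0.742 at 36 h, and 0.854, 0.986, 0.990 and 0.896 at 48 h. Every injured section lay below every 0 h section. On the log2 scale it fell by 1.63 ± 0.28 at 24 h (n = 2 and 3, adjusted p = 0.00105, edgeR), by 1.19 ± 0.27 at 36 h (n = 2 and 3, adjusted p = 0.00902, edgeR) and by 0.85 ± 0.21 at 48 h (n = 4 and 3, adjusted p = 0.00713, edgeR). The 48 h call was lost under total-count scaling (-0.32, adjusted p = 0.203).

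Ms4a4b (chr19:11443553-11467055, plus strand) encodes a membrane protein found on T cells. It stood at 0.616, 0.975 and 1.44 CPM at 0 h, 0.430 and 0.383 at 24 h, 0.869 and 0.571 at 36 h, and 0.623, 0.946, 0.947 and 1.24 at 48 h. At 24 h both sections were below the 0 h sections, with a log2 fold change of -1.29 ± 0.44 (n = 2 and 3, adjusted p = 0.0347, edgeR), and the later groups overlapped 0 h. The 24 h calls of Trac and Ms4a4b were both lost under total-count scaling and without 0 h section 3, 0 h section 4, 24 h section A or 24 h section B, each left out in turn, whereas the Nkg7 call at 24 h held in each of these.

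The 250 bases before the RefSeq start of Nkg7 and Ms4a4b are shown because these are the members lower at 24 h that have an entry among the RefSeq promoters (GRCm38.p6). Capitals mark the ETS core GGAA and the RUNX core TGTGGT on either strand, the motifs of factor families known from lymphocyte genes. The window lies at chr7:43436888-43437137 for Nkg7 and at chr19:11443308-11443557 for Ms4a4b, both on the plus strand.
Nkg7: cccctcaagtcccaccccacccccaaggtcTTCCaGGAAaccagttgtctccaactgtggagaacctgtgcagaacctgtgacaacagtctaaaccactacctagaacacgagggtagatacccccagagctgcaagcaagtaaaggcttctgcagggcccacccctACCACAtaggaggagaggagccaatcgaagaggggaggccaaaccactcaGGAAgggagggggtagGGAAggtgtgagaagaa
Ms4a4b: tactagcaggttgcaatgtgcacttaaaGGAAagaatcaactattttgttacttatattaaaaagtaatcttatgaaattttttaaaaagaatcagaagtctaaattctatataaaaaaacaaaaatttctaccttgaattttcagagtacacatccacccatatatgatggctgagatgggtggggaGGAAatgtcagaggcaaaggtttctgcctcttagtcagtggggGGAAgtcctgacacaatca
The Nkg7 window held 4 ETS cores and 1 RUNX core, and that of Ms4a4b held 3 and 0. Of all 32851 promoters, 93.4% held an ETS core and 14.0% a RUNX core in the same span. The letters CAGCTG, CCCNNGGG and GATAA, searched on both strands, were in none of the 5 member promoters that have an entry, and in 13.0%, 11.8% and 22.6% of all promoters.

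Gzma (chr13:113093825-113100981, minus strand) encodes granzyme A, a protease of cytotoxic granules. It read 1.06, 1.23 and 2.20 CPM at 0 h and 1.03 and 0.542 at 24 h, so the 24 h sections lay just below the 0 h ones. The difference of -0.89 was not called (adjusted p = 0.154, edgeR), and the 36 h and 48 h sections overlapped 0 h.

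Ccl5 (chr11:83525778-83530518, minus strand) encodes a chemokine that draws T cells and monocytes, made by activated lymphocytes and by other cells. Its level was 4.01, 5.15 and 7.34 CPM at 0 h, 8.56 and 6.25 at 24 h, 12.3 and 8.96 at 36 h, and 13.6, 6.97, 14.0 and 5.52 at 48 h. Both 36 h sections lay above the 0 h sections, and the 48 h sections overlapped them, split between a higher and a lower pair. The differences of 0.96 ± 0.41 at 36 h (n = 2 and 3, adjusted p = 0.103, edgeR) and 0.87 ± 0.35 at 48 h (n = 4 and 3, adjusted p = 0.0663, edgeR) were not called, and total-count scaling called both. The 48 h difference was also called by DESeq2 (0.87, adjusted p = 0.0259) and by edgeR without 48 h section D (1.08, adjusted p = 0.0191).

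**Figure D2:**
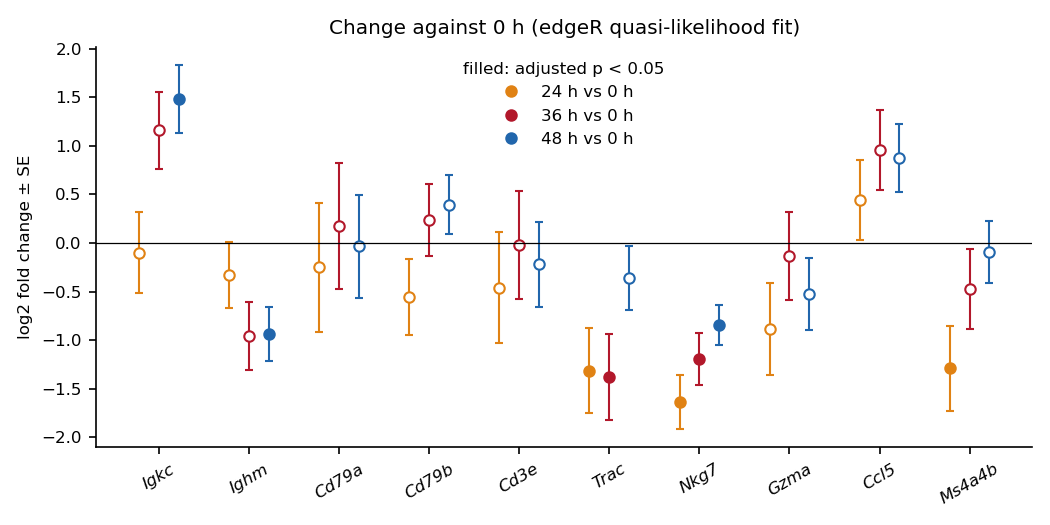
Log2 fold change of each gene against 0 h (vertical axis) at 24, 36 and 48 h, with bars of 1 SE from the edgeR fit over all 11 sections. Igkc at 48 h stands at 1.48 and Nkg7 lies below 0 at all 3 times, at -1.63, -1.19 and -0.85.

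Other genes of the same lineages were read from lists, whose counts stand against the shares of all genes called: 23.1% higher and 18.6% lower at 24 h, 16.8% and 12.4% at 36 h, and 23.3% and 20.9% at 48 h. Of 12 B cell genes tested, 3 were higher and 0 lower at 48 h, with a list median of 0.39 against 0.01 for all genes. They were Ly6d at 6.90, Cd24a at 1.59 and Cd37 at 1.37, of which Ly6d and Cd24a are also made by epithelial cells, and 3 of 12 is near the share of all genes. Of 9 other immunoglobulin constant region and joining chain genes, 3 were higher and 0 lower at 48 h: Igha of the IgA heavy chain (3.48 on the log2 scale), Ighg2c (3.16) and Iglc1 (2.70), with a median of 2.70. The Iglc1 groups overlapped, at 0.132, 0.552 and 0.254 CPM at 0 h and 4.72, 0.523, 0.330 and 2.77 in 48 h sections A to D. The Ighg genes are similar to each other, as are the Iglc genes, so the counts within each group are uncertain to the extent that shared reads were lost or split. Of 8 plasma cell genes, 2 were higher and 0 lower at 48 h, again near the 23.3% of all genes called higher.

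Of 16 T cell genes, 2 were higher and 3 lower at 24 h, 2 and 2 at 36 h, and 3 and 3 at 48 h, counts near or below those shares of all genes. Trbc2, the partner chain of Trac, was lower at each time, by -1.58, -1.16 and -0.88, while Il7r, the receptor for interleukin-7, was higher at 1.57, 2.56 and 3.93. Of 12 NK and cytotoxic genes, 2 were higher and 6 lower at 24 h, with a list median of -0.99, then 2 and 1 at 36 h and 3 and 2 at 48 h. Those lower at 24 h were Klrb1c, Klrk1, Gzmb, Xcl1, Il2rb and Cxcr6, and Ccl3 and Ccl4, chemokines that macrophages make too, were higher. Of 13 lymphocyte homing genes, 4 were higher and 2 lower at 48 h, against 23.3% and 20.9% of all genes. Over the same time the pan-leucocyte list had 9 of 10 genes higher and 0 lower at 48 h, and the neutrophil list 7 of 7.

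Part of the Igkc at 48 h lay in few spots. Spots with 10 or more Igkc UMIs, a threshold set after the values were seen, numbered 1 of 6956 at 0 h, 4 of 4169 at 24 h, 4 of 4005 at 36 h and 43 of 10006 at 48 h. They held 4.25%, 28.0%, 27.3% and 34.6% of the Igkc UMIs of each time. In the 48 h sections A to D they numbered 11, 8, 20 and 4, and the richest, in section B, had 114 Igkc UMIs. Without these spots Igkc stood at 4.80, 5.36 and 2.82 CPM in uninjured liver and 5.88, 7.81, 12.7 and 6.60 at 48 h, still with no overlap, and the difference was 0.93 (n = 4 and 3, adjusted p = 0.0349, edgeR).

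Of the 52 Igkc-rich spots, 46 had at least 5 heavy chain UMIs, and in 43 of these a single class made up at least 80% of them. That class was IgA (Igha) in 32 spots, 28 of them at 48 h, then Ighg1 and Ighm in 4 each, and Ighg2b, Ighg2c and Ighg3 in 1 each. Jchain, which joins IgA and IgM units, was present in 45 of the 52 spots. Cd79a had UMIs in 0 of them and Cd79b in 9. Over all spots of a section Cd79a was in 0.639% to 3.84% and Cd79b in 1.46% to 7.81%, so 0 of 52 spots is not told apart from the background of Cd79a. The immunoglobulin constant list had 845 raw CPM (scaled to the UMIs of those spots, without TMM) in these spots and 9.34 in all others. On the same scale Cd79b had 7.72, from 10 UMIs, in these spots and 1.90 in all others. By rank on periportal hepatocyte genes 11 spots were portal-rich, 14 portal-poor and 27 between, as defined below.

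**Figure D3:**
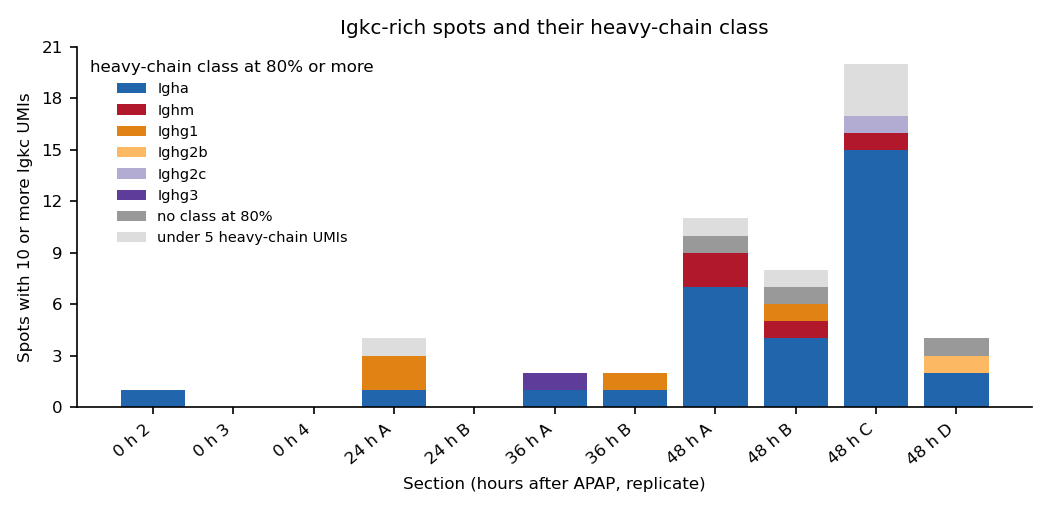
Number of spots with 10 or more Igkc UMIs in each section (vertical axis), with bars from 0 divided by the dominant heavy chain class. The 48 h sections hold 11, 8, 20 and 4 such spots, most of them dominated by Igha.

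Ccl5 was also uneven. It reached 10 UMIs in 29 spots, of which 0 were in 0 h sections, 2 in 24 h, 6 in 36 h and 21 in 48 h sections, and these lay in all 8 injured sections. The highest count was 47. Cxcl10, an interferon-induced chemokine, was present in 12 of them (41.4%) against 3561 of the 25136 spots in all (14.2%). The latter share pools 0 h sections (9.18% to 13.3%) with injured sections (5.60% to 26.4%). Neither time nor spot depth was matched in this comparison. Any UMI of the other T and NK members was in 6 of the 29 spots. Each of these members alone was in 0.260% to 3.31% of the spots of a section, and their joint share was not computed. In raw CPM, these spots and all others held Ms4a4b at 5.34 and 0.843, Gzma at 4.01 and 1.14, and Nkg7 at 2.67 and 1.04. Trac was at 1.34 and 0.804 and Cd3e at 0 and 0.263, each from 4 UMIs or fewer in the rich spots.

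Spots were ranked within each section by a list of periportal hepatocyte genes, and the top 25% (portal-rich) were set against the bottom 25% (portal-poor). The score reads hepatocyte RNA, so it is not lobule position alone. At 48 h the lesion phagocyte list used below was at 2136 to 4206 raw CPM in portal-poor and 431 to 935 in portal-rich spots. At 0 h the order was reversed (76.2 to 95.8 and 157 to 198). A hepatocyte list was at 68426 to 85279 and 104268 to 123105 at 48 h. This contrast is thus not separate from the lesion contrast after injury, and the part of lesion tissue in it was not tested. Over all times, 9 of the 9 members tested were lower in portal-rich spots, against 27.3% of all genes lower and 26.4% higher. The count was 5 without 24 h section A, 5 with the ranking made on spots thinned to 2000 UMIs, and 3 of 8 tested with the top against the bottom 10%. Cd3e was too sparse for the test. At 0 h only Ighm was called lower and 0 members higher (6.01% of all genes lower, 5.79% higher). At 24 h Ighm alone was lower (of 13668 genes, 1696 lower and 1848 higher), and at 36 h Igkc, Ighm, Trac and Ccl5 (2079 and 2170). At 48 h all 9 tested were lower (34.8% lower, 30.1% higher).

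Ighm kept the same order in every section. At 0 h it stood at 3.14, 4.75 and 3.74 raw CPM in portal-rich spots and 8.20, 11.2 and 12.4 in portal-poor spots. At 48 h the values were 1.86, 2.20, 1.26 and 3.19 against 7.91, 10.5, 10.2 and 11.2. Portal-rich spots were lower in 11 of 11 sections, for Ccl5 as well, and the Ighm difference was -1.40 ± 0.10 over all times (n = 11, adjusted p = 2.3e-11, edgeR). At 0 h it was -1.38 ± 0.14 (n = 3, adjusted p = 1.6e-07, edgeR).

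For 4 members the portal difference itself changed between 0 h and 48 h, a contrast chosen after values were seen (21.2% of all genes called lower, 23.5% higher). It moved by -1.46 ± 0.33 for Cd79b (adjusted p = 0.00095, edgeR), -2.04 ± 0.49 for Trac (adjusted p = 0.0014), -1.51 ± 0.43 for Nkg7 (adjusted p = 0.0055) and -2.05 ± 0.54 for Ms4a4b (adjusted p = 0.0032). Ighm, at -0.42, was not called (adjusted p = 0.125). The pan-leucocyte list moved with these members. It summed to 87.7 to 100 raw CPM in portal-rich and 76.5 to 91.1 in portal-poor spots at 0 h, and to 125 to 193 and 475 to 721 at 48 h. Its part in the result was not tested.

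**Figure D4:**
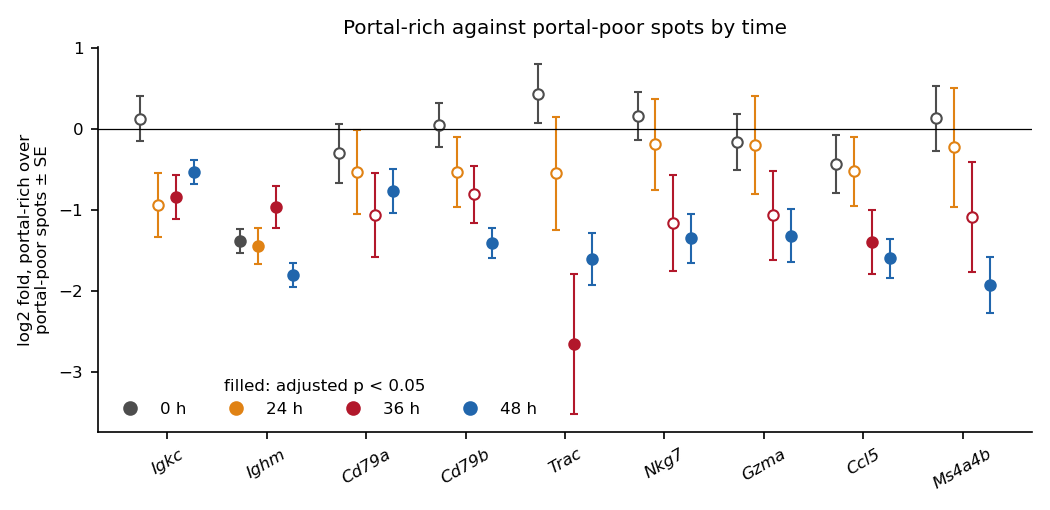
Log2 fold of portal-rich over portal-poor spots for the 9 members tested (vertical axis), at 0, 24, 36 and 48 h, with bars of 1 SE. At 48 h all 9 lie below 0, and at 0 h Ighm alone, at -1.38, was called.

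In the injured sections, spots were also ranked by a list of phagocyte genes that mark the necrotic lesions, and the top 10% were set against the rest. Over all times 5 of 10 members were higher and 0 lower, against 26.6% and 28.8% of all genes. The count was 3 without 24 h section A and 3 with the top 5%. They were Ighm (1.13 ± 0.11), Cd79a (1.03 ± 0.24), Cd79b (0.94 ± 0.21), Trac (1.20 ± 0.38) and Nkg7 (1.001 ± 0.31). At 48 h 8 of 10 were higher (34.5% of all genes higher, 29.6% lower), with Cd3e and Igkc not called (Igkc 0.70, adjusted p = 0.220, edgeR). The pan-leucocyte list was at 789 to 1165 raw CPM in these spots and 190 to 319 in the rest at 48 h.

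Bile duct spots, with at least 2 UMIs of duct genes, numbered 1 to 19 per section. None of the 10 members was called there by edgeR over all times, and 0 had an unadjusted p under 0.05, where 0.267% of all genes were called higher and 1.91% lower. DESeq2 called 1, Trac. Trac at 0 h was higher, at 3.60 ± 0.94 (n = 3, adjusted p = 0.00975, edgeR; 1.79% of all genes higher, 0.686% lower), a value singled out after it was seen. It rested on 6 Trac UMIs, 2, 3 and 1 in sections 2, 3 and 4, over 24 duct spots. With spots thinned to 2000 UMIs it turned to -7.59 (adjusted p = 0.950). The call was lost without 0 h section 2 (adjusted p = 0.172), without 0 h section 3 (adjusted p = 0.337) and with a minimum of 1 duct UMI (1.40, adjusted p = 0.107).

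Each member was present in a minority of the spots of every section. Igkc was present in 3.61% to 22.4% of the spots of a section and Cd3e in 0.260% to 1.16%, and with every spot thinned to 5000 UMIs Igkc was in 1.11% to 7.18%. In spots off the tissue Igkc stood at 1.41 to 13.8 raw CPM and Ighm at 2.08 to 7.06. The median depth of such spots ran from 952 UMIs in 24 h section B to 10293 in 48 h section A. Kept tissue spots of 48 h section A had a median of 17518. How this uneven depth bears on the values off the tissue was not tested. Igkc was higher off than on the tissue of 24 h section A (7.28 against 5.24) and 36 h section A (13.3 against 12.7). Ighm was so in 48 h sections A (7.06 against 4.28) and C (5.37 against 5.22). In all other sections each was lower off the tissue. Off the tissue Ighm was at 4.88, 5.40 and 6.17 at 0 h and 7.06, 4.70, 5.37 and 4.50 at 48 h, so these groups overlapped. The part of RNA spread from elsewhere in the shares of spots was not tested. In the thinned spots Cd79a and Cd79b were found together in 8 against 1.34 computed from their separate shares, Trac and Ms4a4b in 5 against 0.438, and Igkc and Ighm in 44 against 19.8. These are totals, and the count was above the computed value in 6, 4 and 9 of the 11 sections, in that order. For Igkc and Ighm it was not in 0 h sections 2 and 4. Across spots, the genes most like the summed B genes were Jchain (mean Pearson r of 0.17 over 11 sections) and Igha (0.13), and those most like the summed T and NK genes were Tmsb10 (0.09) and Fth1 (0.08), all weak.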

How the data were processed

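Spatial transcriptomes (Visium) of 11 sections of mouse liver were analysed. Per the labels and methods, the authors aligned reads to mm10 and deposited raw UMI counts per gene and spot (Space Ranger 1.0.0 and Seurat 4.1.1 are named in the submitters' processing notes). Tissue spots were kept from 800 detected genes upwards and up to 20% mitochondrial UMIs, 25136 in all, from arrays of 4992 positions. Counts were summed per section, or per section and spot class, and tested with edgeR 4.0.16 (R 4.3.3; TMM scaling, robust quasi-likelihood F-test, two-sided) over all 11 sections. SE is the log2 fold change divided by the root of F. Adjusted p-values (Benjamini-Hochberg) cover all genes tested, 14821 for the times. CPM are scaled by TMM (TMM factors of the time fit) unless called raw. TMM put the median of all genes at 0.05, 0.05 and 0.01 (log2) at 24, 36 and 48 h against 0 h, and total-count scaling at 0.37, 0.49 and 0.54. The split of higher and lower calls at 48 h was 3451 and 3101 under TMM and 8920 and 599 under total counts, at 24 h 3426 and 2754 against 6097 and 1487, and at 36 h 2488 and 1841 against 7064 and 442. DESeq2 1.42.0 was an alternative. Scripts were tested on simulated data. Sections of 1 time point differed beyond counting noise in all 11 pairs (lowest chi-square per degree of freedom 42.1). All 10 members are named, with genes of fixed lists by size of change or abundance. The members and lists were chosen with earlier results of these data known. Gene positions are from GENCODE (GRCm38) and promoters from RefSeq.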

Additional observations from a re-analysis of the deposited data

Results flagged for a closer look

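Spots off the tissue were not used in the comparisons, and their depth differed between sections, as given above. Igkc there was at least 7.71 raw CPM (scaled to the UMIs of those spots) in every 48 h section, above the highest 0 h section at 3.39. Ccl5 there reached at least 3.95 at 24 h, 6.18 at 36 h and 3.79 at 48 h, against 2.96 at most at 0 h. The difference between portal-rich and portal-poor spots changed from 0 h to 48 h for Cd79b (-1.46 on the log2 scale), Trac (-2.04), Nkg7 (-1.51) and Ms4a4b (-2.05), by the edgeR test of the difference itself.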

How the results depend on the processing

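Each limit of depth falls hardest on Cd3e, with 7 to 30 UMIs per section, and sections are not known to be separate mice within a time. The cause of the changes below was not tested. The number of members called went from 3 to 1 at 24 h under total-count scaling, from 2 to 4 at 36 h and from 0 to 1 between 36 h and 24 h with DESeq2, from 9 to 3 in portal-rich spots with the top and bottom 10%, from 9 to 5 with scores from 2000 UMIs a spot, from 5 to 3 in lesion spots with the top 5%, and from 0 to 1 in duct spots with DESeq2. With each section left out in turn the counts ran from 1 to 3 at 24 h, 1 to 3 at 36 h, 2 to 4 at 48 h, 0 to 1 for 36 h against 24 h, 0 to 0 for 48 h against 36 h, 5 to 9 for portal, 3 to 6 for lesion and 0 to 0 for duct spots. With each section left out, Igkc at 48 h and Nkg7 at 24, 36 and 48 h stayed past the threshold. Nkg7 at 48 h did not under total-count scaling (-0.32). Leaving out the Igkc-rich spots, and the fit of injured sections only, were added after the data were seen.

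Direction turned under total-count scaling for Igkc (0.23), Ighm (0.0043) and Cd79a (0.065) at 24 h, Cd3e (0.40) and Gzma (0.29) at 36 h, and Cd79a (0.49), Cd3e (0.30), Trac (0.17), Gzma (0.0056) and Ms4a4b (0.43) at 48 h, for Trac between 36 h and 24 h (0.045), Ccl5 between 48 h and 36 h (0.0057) and Gzma in lesion spots (0.33). Gzma in lesion spots also turned with the top 5% (0.45), with 2000 UMIs a spot (0.30) and with DESeq2 (0.0023), Trac in duct spots at 0 h with 2000 UMIs a spot (-7.59), and Ighm between 48 h and 36 h without Igkc-rich spots (-0.085). With a section left out the ranges that crossed 0 were, at 24 h, Igkc -0.48 to 0.18 and Cd79a -0.75 to 0.24, at 36 h, Cd79a -1.35 to 0.89, Cd79b -0.063 to 0.55, Cd3e -0.52 to 0.34 and Gzma -0.72 to 0.27, and at 48 h, Cd79a -0.39 to 0.49 and Ms4a4b -0.35 to 0.22. Between 36 h and 24 h they were Cd79a -1.09 to 1.19, Cd3e -0.022 to 0.92 and Trac -0.48 to 0.38, and between 48 h and 36 h, Ighm -0.54 to 0.94, Cd79a -0.93 to 1.31, Cd79b -0.087 to 0.45, Cd3e -0.62 to 0.30, Gzma -0.80 to 0.19 and Ccl5 -0.30 to 0.17. In lesion spots they were Igkc -0.16 to 0.80 and Gzma -1.89 to 0.23.

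Deviations of sections with the same letter from their group means had r from -0.27 to 0.46 in 6 pairs. With only sections A and B at 24 h and at 36 h, both same-letter pairs of that step give 0.46 by construction. The 6 values are thus not separate checks and cannot decide whether the letters pair sections. The main fit did not pair them. With the letter as a replicate block, the step from 24 h to 36 h had 0 members called and that from 36 h to 48 h had 0, as without it. That fit holds the injured sections only, since 0 h has no letters. Over all genes the same sections gave 984 and 7 calls with no block and 82 and 0 with it, against 2315 and 452 with 0 h in the fit. With only the groups compared the calls were 1 and 0. The block turned Cd79b between 48 h and 36 h (-0.17).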

Other observations

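Trdc, the constant region of the T cell receptor delta chain, was nearly absent at 0 h (0.0660, 0 and 0.141 CPM) and stood at 7.74 and 3.13 CPM at 24 h, 1.68 and 1.20 at 36 h, and 0.579, 0.403, 1.28 and 0.361 at 48 h. All injured sections were above all 0 h sections. In 24 h section A its 360 UMIs lay in 307 spots, with at most 4 in any. Against 0 h it was higher by 6.43 on the log2 scale at 24 h, where Trac was lower. The gamma chain genes Tcrg-C1, Tcrg-C2 and Tcrg-C4 did not exceed 0.37 CPM in any section and Il17a had 0 UMIs in all.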
